A study of Mus musculus with 9 samples.

Results

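The genes described here make amino acids, carry them across the plasma membrane and charge them onto tRNA in mouse embryonic fibroblasts (MEFs) with and without mutations in endoplasmic reticulum (ER) thiol oxidases. A list of 40 genes was chosen by name in 3 classes, of which 13 are enzymes of serine, asparagine, proline, transamination and mitochondrial folate metabolism, 10 are amino acid transporters and 17 are cytosolic tRNA synthetases. A gene was measured where a probe set of the array carries its symbol alone, and the brightest such probe set over the 9 arrays was used. This gave 38 of the 40 genes, among 19938 genes in all, with 12 enzymes, 10 transporters and 16 synthetases. Pycr1 and Dars were not analysed here.

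These genes form a shared programme in mammalian cells. When amino acids run short or unfolded protein accumulates in the ER, the kinases GCN2 and PERK phosphorylate the translation factor eIF2α, general protein synthesis slows, and translation of the transcription factor ATF4 rises. ATF4 then raises transcription of genes for amino acid synthesis, uptake and tRNA charging, so that their mRNAs are widely used as a readout of this pathway. In fibroblasts the same enzymes also feed procollagen, which is rich in glycine and proline.

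MEFs of 3 genotypes were compared, with 3 arrays of each. TM MEFs are labelled PRDX4 KO with ERO1alpha and beta double mutant, DM MEFs carry the ERO1alpha and beta double mutation alone, and WT MEFs are labelled wild type. All are on a background given as C57B/L6 and are described as transformed with T antigen, and all were grown in DMEM with non-essential amino acids, a supplement that itself supplies serine, asparagine, proline and glycine, and Glutamax. Control embryos are described in the methods as heterozygous for the Ero1α mutation and homozygous for the Ero1β mutation, so the arrays labelled wild type may not be free of mutant alleles. Both Ero1 mutations are gene-trap insertions, and Prdx4 lies on the X chromosome. The methods give control and DM MEFs as Prdx4 +/+, a female genotype, and TM MEFs as Prdx4 m/y, a male one. The array labels do not state sex. If these genotypes hold for the arrays, sex and the Prdx4 mutation cannot be told apart in either comparison of TM MEFs. Whether the 3 arrays per genotype are separate cultures or embryos is stated in neither source. The p-values therefore reflect array-to-array spread alone, and that spread may be technical. Values are log2 RMA levels as deposited, and calls were made where limma gave an adjusted p under 0.05 and the change was over 1.5-fold. Levels of different genes are not set against each other, because each probe set binds with its own efficiency.

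The mutated genes were measured first. Ero1a, which encodes ERO1α, had log2 levels of 9.12, 8.98 and 9.10 in TM MEFs and 9.45, 9.41 and 9.52 in DM MEFs, against 11.88, 11.87 and 11.84 in WT MEFs. Prdx4, which encodes the ER peroxiredoxin, had log2 levels of 5.96, 6.75 and 6.17 in TM MEFs and 10.71, 10.45 and 10.88 in DM MEFs, against 10.58, 10.66 and 10.44 in WT MEFs. Both genes were thus low in the genotypes that carry their mutations. Ero1b, which encodes ERO1β, had log2 levels of 7.86, 7.93 and 8.02 in TM MEFs and 7.68, 7.72 and 7.72 in DM MEFs, against 7.71, 7.72 and 7.52 in WT MEFs, and was called in no comparison. The TM arrays lay above the DM and WT arrays, by 0.29 on the log2 scale over WT, and the DM and WT arrays overlapped.

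Markers of cell type differed between the genotypes. Over all genes, between 3.56% and 5.67% were called in a given direction, whatever the comparison. Of 12 mesothelial and simple epithelial markers, 8 were higher and 1 lower in DM than in WT MEFs, with a mean log2 level over the list of 7.14 to 7.25 on TM arrays, 9.91 to 9.97 on DM arrays and 7.70 to 7.71 on WT arrays, although Msln, which encodes mesothelin, was the 1 that fell and Epcam was below the array median on every array. In TM against DM MEFs 10 of the 12 were lower. Of 10 fibroblast markers, 4 were higher in TM than in WT MEFs, 5 were higher in TM than in DM MEFs, and 2 were higher and 2 lower in DM than in WT MEFs, with a mean log2 level of 11.35 to 11.44 on TM arrays, 10.54 to 10.56 on DM arrays and 10.61 to 10.64 on WT arrays. In DM against WT MEFs Pdgfrb rose by 1.18 and Dcn rose by 1.14 on the log2 scale, Pdgfra fell by 1.91 and Col1a2 fell by 1.71, and Vim lay between 14.13 and 14.20 on all 9 arrays. Smooth muscle and pericyte genes, 8 in number, included 4 called higher in TM than in WT MEFs and 3 in TM than in DM MEFs, and the 9 macrophage and leukocyte markers and 8 endothelial markers had 0 calls by limma. In every list outside the 3 classes that had 0 calls in a direction, no gene passed 1.5-fold in that direction. An unadjusted p under 0.05 could therefore only give the same 0. The part of these markers in the results below was not tested. A fall in the mRNA per cell and a smaller share of cells that make it cannot be told apart in such samples.

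Most of these genes were lowest in DM MEFs, and in TM MEFs their median lay close to WT. The mean level of a gene was lowest in DM MEFs in 35 of the 38 genes, or 92.1%, while this held for 27.3% of all genes. Against WT MEFs, 11 of the 38 genes fell in DM MEFs and 0 rose, where 5.67% of all genes tested were called lower and 5.28% higher. In this comparison the log2 fold changes had a median of -0.43 over the 38 genes and 0.025 over all genes. In TM MEFs 3 genes rose against WT and 0 fell, beside 5.59% of all genes called higher and 3.56% lower, and the median log2 fold change was 0.053, against -0.029 over all genes. Compared directly, 14 of the 38 genes were higher in TM than in DM MEFs and 0 were lower, where 4.68% of all genes were called higher and 3.61% lower, with a median log2 fold change of 0.42 against -0.046 over all genes. Each count of 0 held too when limma p-values were left unadjusted, and by an unpaired Student t-test, with the 1.5-fold limit kept. None of the 38 genes passed 1.5-fold in those directions, so no rule on p could have given another count. The comparisons share arrays, WT in both mutants' and DM in both of its own, so their counts are not independent.

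**Figure D1:**
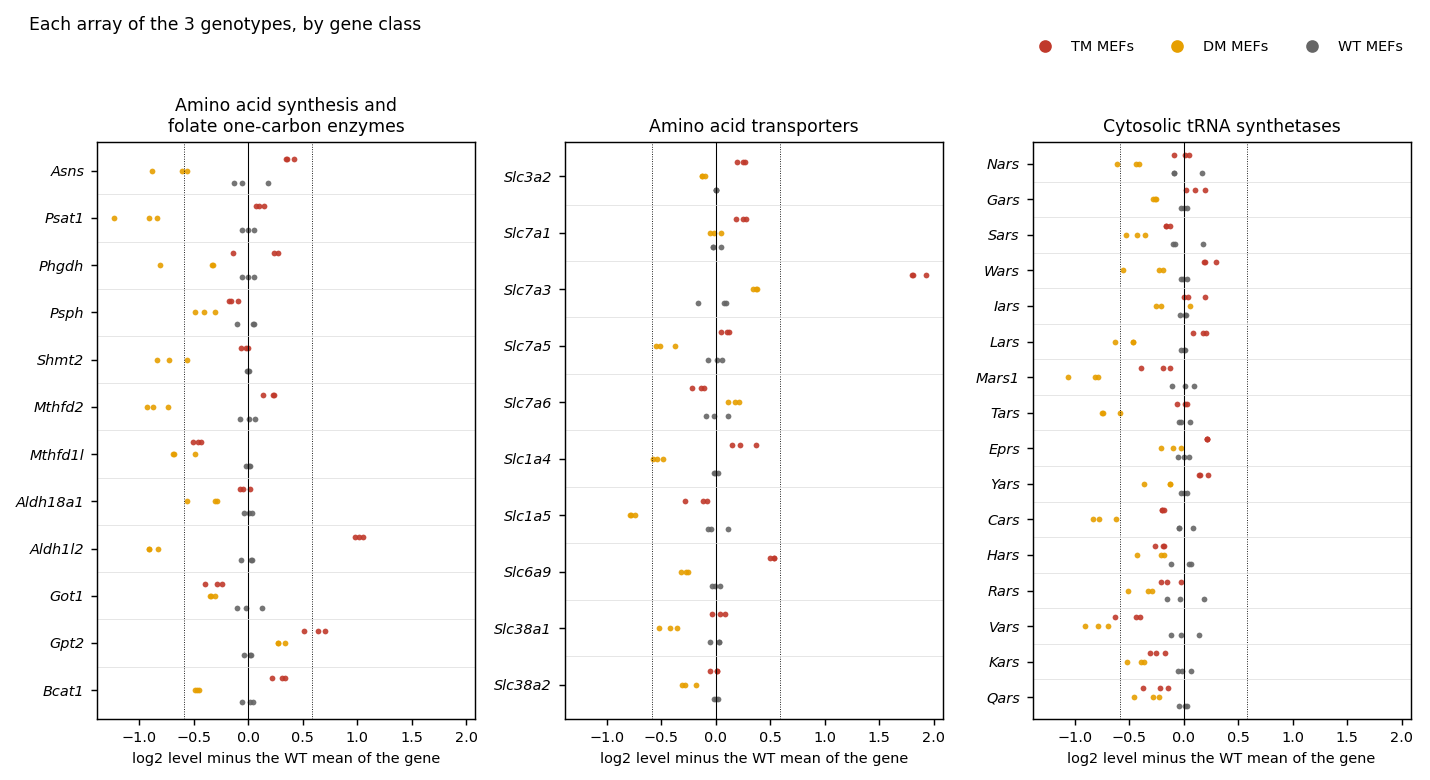
Log2 level of each of the 38 genes on each array minus the mean of the gene in WT MEFs, with TM (red), DM (orange) and WT (grey) arrays on separate lines of each row. Dotted lines mark 1.5-fold, and DM points lie left of the WT mean in most rows while TM points lie near it, with Aldh1l2 and Slc7a3 far to the right in TM MEFs.

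The changes were modest in size and widely spread. Without the fold limit, 31 of the 38 genes were lower in DM than in WT MEFs at an adjusted p under 0.05 (limma), beside 19.8% of all genes, and 2 were higher, Gpt2 and Slc7a3, beside 17.0%. In TM against WT MEFs 11 were higher and 6 lower, beside 13.8% and 18.0% of all genes, and in TM against DM MEFs 30 were higher and 1, Slc7a6, was lower, beside 15.4% and 16.5%. At over 2-fold, 0 of the 38 were higher or lower in DM than in WT MEFs, beside 2.64% and 1.8% of all genes, 2 were higher (Aldh1l2 and Slc7a3) and 0 lower in TM than in WT MEFs, beside 2.8% and 1.12%, and 5 were higher in TM than in DM MEFs (Asns, Psat1, Mthfd2, Aldh1l2 and Slc7a3) and 0 lower, beside 2.05% and 1.34%. All but 1 of the 38 genes, Slc7a3, were above the array median on every array, and bright genes were called more often. Among the 9969 genes at or above the median level, 7.21% were higher and 9.58% lower in DM than in WT MEFs, 7.06% higher and 5.6% lower in TM than in WT MEFs, and 6.59% higher and 5.22% lower in TM than in DM MEFs. Called lower in DM than in WT MEFs were 50% of the enzymes, 10% of the transporters and 25% of the synthetases. Called higher in TM than in DM MEFs were 58.3% of the enzymes, 40% of the transporters and 18.8% of the synthetases.

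**Figure D2:**
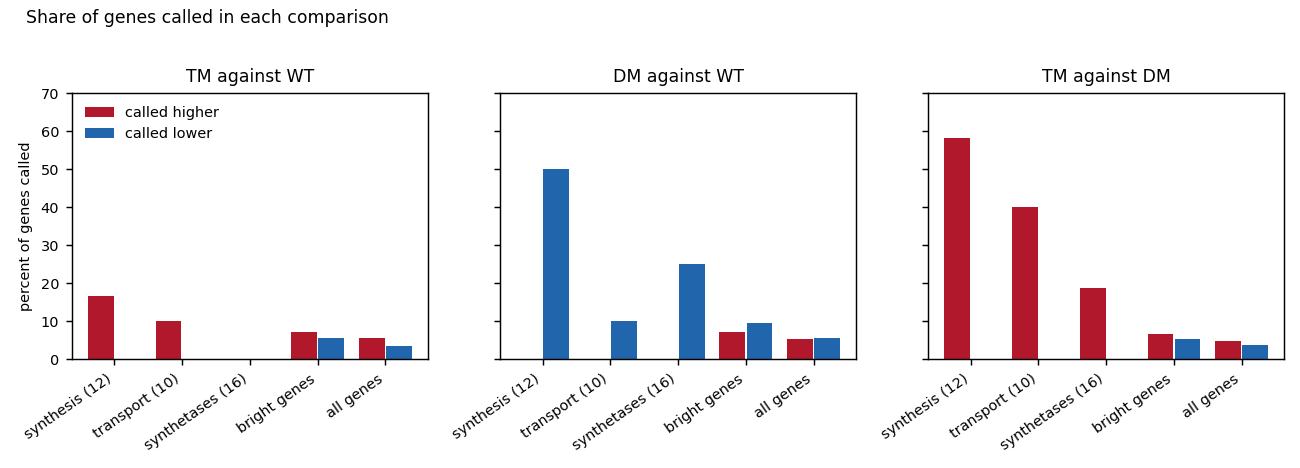
Percent of genes called higher (red) or lower (blue) in each comparison, for the 3 classes (number measured in brackets), for the genes at or above the median level and for all 19938 genes. No gene of the 3 classes was called higher in DM than in WT MEFs or lower in either comparison of TM MEFs.

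Among markers of growth, 11 genes of DNA replication and mitosis, 0 were called in TM against DM MEFs by limma, and 1 fell in each mutant against WT MEFs, Aurka in TM and Mcm5 in DM. Over all genes, 3.56% were called lower in TM and 5.67% in DM MEFs against WT. Their mean log2 level was 12.02 to 12.07 on TM arrays, 11.96 to 12.06 on DM arrays and 12.22 to 12.28 on WT arrays. The TM and DM arrays overlapped in this mean. Taken singly, 3 of the 11 genes, or 27.3%, did not overlap between TM and DM arrays, beside 40.0% of all genes. Against WT, 7 of the 11, or 63.6%, did not overlap in each mutant, beside 43.4% of all genes for TM and 46.4% for DM MEFs. Among genes at or above the median level the shares were 62.3% for TM and 66.3% for DM MEFs against WT. They were 55.4% for TM against DM MEFs. The growth genes are bright, and their share against WT lies near that of bright genes. The part of the growth genes in the results was not tested.

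ATF4 binds a composite site with C/EBP proteins whose core reads TGATGNAA, and in human ASNS such a site is known as the nutrient-sensing response element. RefSeq promoter windows (GRCm38.p6, from 250 bases before to 50 bases after each annotated start) were found for 26 of the 38 genes and searched for these letters on both strands (TTNCATCA on the other). A match was present in 7 of the 26 genes, 26.9%, and in 4.51% of the 27025 genes with a window, or 3.97% of windows. Of the 10 genes with a window that were called higher in TM than in DM MEFs 3 held a match (Asns, Slc1a4 and Tars), as did 4 of the other 16 (Got1, Gars, Iars and Yars). The letters were searched for because ATF4 targets are known to carry them, and a match is a description and not evidence of binding. The sequences before the start are shown for the 4 genes with a match lying wholly upstream, 5′ to 3′ on the strand of the gene, with the match in capitals, over chr6:7693210-7693359 (minus strand), chr19:43524606-43524755 (minus strand), chr6:55037851-55038000 (plus strand) and chr15:11399659-11399808 (minus strand).
Asns: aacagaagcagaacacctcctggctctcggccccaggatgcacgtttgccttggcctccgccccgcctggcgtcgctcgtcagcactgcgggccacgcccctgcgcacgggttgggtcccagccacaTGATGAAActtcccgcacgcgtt
Got1: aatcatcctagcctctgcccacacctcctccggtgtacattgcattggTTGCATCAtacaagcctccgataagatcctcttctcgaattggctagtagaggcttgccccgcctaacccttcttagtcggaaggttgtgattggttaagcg
Gars: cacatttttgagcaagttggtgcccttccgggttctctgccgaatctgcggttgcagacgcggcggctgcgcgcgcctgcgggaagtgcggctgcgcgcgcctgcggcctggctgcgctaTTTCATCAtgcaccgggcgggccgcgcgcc
Tars: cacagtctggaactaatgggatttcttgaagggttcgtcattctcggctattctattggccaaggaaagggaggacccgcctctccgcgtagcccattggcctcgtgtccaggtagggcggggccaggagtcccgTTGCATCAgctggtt
In Asns the match begins 23 bases before the start and runs on the strand of the gene, and in Tars, Gars and Got1 it lies on the other strand, beginning 15, 30 and 102 bases before the start. In Slc1a4, Iars and Yars the match lies across or just after the start, and 30 bases around it are shown, over chr11:20332699-20332728 (minus strand), chr13:49682126-49682155 (plus strand) and chr4:129189895-129189924 (plus strand).
Slc1a4: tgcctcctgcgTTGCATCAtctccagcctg
Iars: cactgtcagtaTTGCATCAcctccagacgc
Yars: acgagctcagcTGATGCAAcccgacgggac
Of the 7 matches, 5 share the 8 bases TTGCATCA or their complement, TGATGCAA, and Asns and Gars hold TGATGAAA and TTTCATCA. The log2 fold changes of these 7 genes in TM against DM MEFs ran between 0.027 for Got1 and 1.06 for Asns.

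Serine synthesis begins from the glycolytic intermediate 3-phosphoglycerate and takes 3 steps, catalysed by PHGDH, PSAT1 and PSPH. Psat1, the aminotransferase of the second step, had log2 levels of 12.74, 12.67 and 12.70 in TM MEFs and 11.68, 11.37 and 11.76 in DM MEFs, against 12.54, 12.65 and 12.60 in WT MEFs. Every DM array lay below every other array. Psat1 fell in DM against WT MEFs by 0.99 on the log2 scale (SE 0.089, adjusted p = 1.86e-06 from limma), a change of 1.99-fold, and was 1.10 higher in TM than in DM MEFs (adjusted p = 9.18e-07 from limma). Phgdh, which encodes the committing dehydrogenase, was called only in TM against DM MEFs, where its log2 fold change was 0.61, and this call was lost without DM replicate 2, where it was 0.45, and without TM replicate 1 or 2. Psph, the phosphatase of the last step, had log2 fold changes of -0.14 in TM and -0.40 in DM MEFs against WT and was not called.

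Serine then gives its side-chain carbon to folate in mitochondria, through SHMT2, MTHFD2 and MTHFD1L, which releases formate, while ALDH1L2 oxidises the same folate-bound carbon to CO2 and yields NADPH. Shmt2 had log2 levels of 12.47, 12.48 and 12.42 in TM MEFs and 11.76, 11.65 and 11.92 in DM MEFs, against 12.49, 12.47 and 12.48 in WT MEFs. TM and WT arrays overlapped and DM arrays lay apart, with a log2 fold change in DM against WT MEFs of -0.71 (SE 0.069, adjusted p = 3.86e-06 from limma). Mthfd2, the mitochondrial dehydrogenase and cyclohydrolase, had log2 levels of 11.61, 11.50 and 11.60 in TM MEFs and 10.63, 10.44 and 10.50 in DM MEFs, against 11.38, 11.44 and 11.30 in WT MEFs. It fell by 0.85 on the log2 scale in DM against WT MEFs (adjusted p = 5.49e-07 from limma) and was 1.05 higher in TM than in DM MEFs (adjusted p = 9.53e-08 from limma), while the difference of 0.20 between TM and WT MEFs was below 1.5-fold.

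Aldh1l2 was the only one of the 38 genes called in opposite directions in the mutants. Its log2 levels were 10.96, 10.99 and 11.03 in TM MEFs and 9.06, 9.06 and 9.15 in DM MEFs, against 9.91, 10.01 and 10.002 in WT MEFs, so that the 3 genotypes formed 3 separate groups. It rose in TM MEFs by 1.02 on the log2 scale (SE 0.057, adjusted p = 2.52e-08 from limma), or 2.02-fold, fell in DM MEFs by 0.88 (adjusted p = 8.53e-08 from limma), and was 3.73-fold higher in TM than in DM MEFs (log2 fold change 1.90, adjusted p = 8.29e-11 from limma). Mthfd1l, the formate-releasing synthetase, behaved otherwise, with log2 levels of 10.54, 10.47 and 10.51 in TM MEFs and 10.29, 10.48 and 10.28 in DM MEFs, against 10.95, 10.99 and 10.97 in WT MEFs. Both mutants lay below WT, by 0.47 on the log2 scale in TM and 0.62 in DM MEFs, of which only the second passed 1.5-fold, and the mutants overlapped each other. The call in DM MEFs was lost with quantile normalization and cyclic loess, where the log2 fold changes were -0.54 and -0.52.

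Asns, which encodes asparagine synthetase, a classic ATF4 target whose promoter is printed above, had log2 levels of 13.04, 13.03 and 13.11 in TM MEFs and 12.13, 11.81 and 12.08 in DM MEFs, against 12.63, 12.87 and 12.55 in WT MEFs. The 3 genotypes did not overlap. Asns fell in DM against WT MEFs by 0.68 on the log2 scale (SE 0.095, adjusted p = 9.59e-05 from limma), a call lost without DM replicate 2 or with cyclic loess, where the log2 fold change was -0.58 in each case, and it was 1.06 higher in TM than in DM MEFs (adjusted p = 2.53e-06 from limma). Aldh18a1, which makes the first committed intermediate of proline from glutamate, had log2 fold changes of -0.034 in TM and -0.38 in DM MEFs against WT and was not called.

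Beside Psat1, the list holds the transaminases Gpt2, Bcat1 and Got1. Gpt2, the mitochondrial alanine aminotransferase, had log2 levels of 10.29, 10.23 and 10.11 in TM MEFs and 9.86, 9.86 and 9.93 in DM MEFs, against 9.61, 9.61 and 9.55 in WT MEFs. It was above WT on every mutant array and was called in TM MEFs alone, where it rose by 0.62 on the log2 scale (SE 0.061, adjusted p = 5.53e-06 from limma), a call lost with median centring (0.54) and without TM replicate 1 (0.58). Bcat1, the cytosolic branched-chain aminotransferase, had log2 levels of 12.33, 12.21 and 12.30 in TM MEFs and 11.54, 11.50 and 11.52 in DM MEFs, against 12.04, 12.01 and 11.93 in WT MEFs. DM arrays were again the lowest, and the log2 fold change in TM against DM MEFs was 0.76 (adjusted p = 4.46e-07 from limma). Got1, the cytosolic aspartate aminotransferase, had log2 fold changes of -0.31 in TM and -0.33 in DM MEFs against WT, neither over 1.5-fold.

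**Figure D3:**
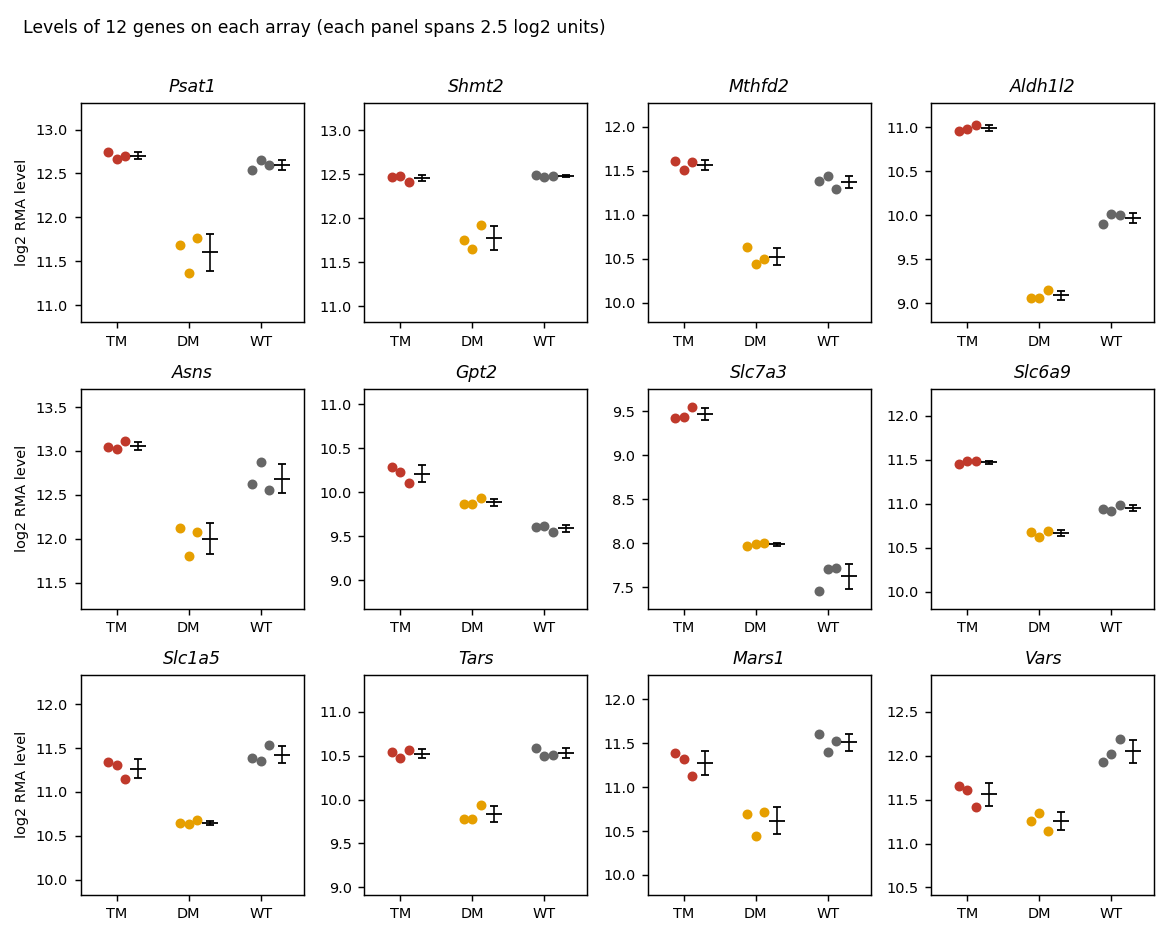
Log2 RMA levels of 12 genes on each array in TM (red), DM (orange) and WT (grey) MEFs, with the mean and SD of the 3 arrays of a genotype beside the points. DM points are lowest for Psat1, Shmt2, Mthfd2, Aldh1l2, Asns, Slc6a9, Slc1a5, Tars, Mars1 and Vars. TM points are highest for Psat1, Mthfd2, Aldh1l2, Asns, Gpt2, Slc7a3 and Slc6a9, narrowly so for Psat1.

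Transporters of the SLC7 family exchange or carry cationic and large neutral amino acids, and several pair with the heavy chain encoded by Slc3a2. Slc7a3, a cationic amino acid transporter, had log2 levels of 9.43, 9.43 and 9.55 in TM MEFs and 7.97, 8.0 and 8.0 in DM MEFs, against 7.46, 7.70 and 7.72 in WT MEFs. All TM arrays were far above the rest. It rose in TM against WT MEFs by 1.84 on the log2 scale (SE 0.073, adjusted p = 8.73e-10 from limma), or 3.59-fold, and was 1.48 higher in TM than in DM MEFs (adjusted p = 8.07e-09 from limma), the lowest WT value lying below the array median. The related Slc7a1 had log2 fold changes of 0.24 in TM and -0.0070 in DM MEFs against WT. Slc7a5, the light chain of the leucine exchanger, had mean log2 levels of 12.88 in TM and 12.31 in DM MEFs, against 12.79 in WT MEFs, and was not called. Slc3a2 was at 13.34 to 13.41 in TM MEFs, at 13.02 to 13.04 in DM MEFs and at 13.15 on all 3 WT arrays, which hold 1 identical value, so that its spread is understated. Slc7a6, another light chain, was the only one of the 38 genes with a lower mean in TM than in DM MEFs, at 11.35 and 11.67, with a log2 fold change of -0.32 that was under 1.5-fold.

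Of the carriers of the SLC1, SLC6 and SLC38 families in the list, Slc1a5 alone was called lower in DM than in WT MEFs. Slc1a5, the glutamine carrier ASCT2, had log2 levels of 11.35, 11.30 and 11.14 in TM MEFs and 10.64, 10.63 and 10.68 in DM MEFs, against 11.38, 11.35 and 11.54 in WT MEFs. It fell in DM against WT MEFs by 0.77 on the log2 scale (SE 0.070, adjusted p = 2.01e-06 from limma) and was 0.61 higher in TM than in DM MEFs, the second call lost without TM replicate 1 (0.57). Slc1a4, the serine and alanine carrier ASCT1, had log2 levels of 10.20, 10.05 and 9.98 in TM MEFs and 9.29, 9.35 and 9.25 in DM MEFs, against 9.82, 9.83 and 9.86 in WT MEFs. The 3 genotypes did not overlap, and the call was in TM against DM MEFs (log2 fold change 0.78, adjusted p = 1.12e-06 from limma), with -0.54 in DM against WT MEFs, which passed 1.5-fold with median centring alone (-0.63). Slc6a9, the glycine transporter GLYT1, had log2 levels of 11.45, 11.48 and 11.48 in TM MEFs and 10.67, 10.62 and 10.69 in DM MEFs, against 10.94, 10.92 and 10.99 in WT MEFs. It too formed 3 separate groups and was 0.81 higher in TM than in DM MEFs (adjusted p = 1.23e-07 from limma), while its difference of 0.52 between TM and WT MEFs was under 1.5-fold, and passed with cyclic loess (0.60). The glutamine carriers Slc38a1 and Slc38a2 had log2 fold changes of -0.44 and -0.26 in DM against WT MEFs, and 0.027 and -0.012 in TM against WT MEFs, with no call.

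Each cytosolic tRNA synthetase joins an amino acid to its tRNA, and all 16 measured had a lower mean in DM than in WT MEFs and a higher mean in TM than in DM MEFs. Their log2 fold changes ran between -0.89 and -0.11 in DM against WT MEFs, with a median of -0.40, and 4 of them were called. Mars1, the methionine enzyme, had log2 levels of 11.39, 11.31 and 11.12 in TM MEFs and 10.69, 10.44 and 10.72 in DM MEFs, against 11.60, 11.40 and 11.52 in WT MEFs. It fell by 0.89 in DM against WT MEFs on the log2 scale (SE 0.091, adjusted p = 6.31e-06 from limma), and its log2 fold change of 0.66 in TM against DM MEFs dropped below the limit without DM replicate 2 (0.57). Tars, the threonine enzyme with a match printed above, had log2 levels of 10.54, 10.47 and 10.56 in TM MEFs and 9.78, 9.78 and 9.94 in DM MEFs, against 10.59, 10.49 and 10.51 in WT MEFs. TM and WT arrays overlapped while DM arrays were lower than WT by 0.69 on the log2 scale (SE 0.063, adjusted p = 2.14e-06 from limma).

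Vars and Cars, the valine and cysteine enzymes, were lower in DM MEFs and also lay below WT in TM MEFs. This was not particular to them, as 10 of the 16 synthetases, or 62.5%, had a mean below WT in TM MEFs. That share lies near the 58.3% of all genes and the 60.8% of genes at or above the median level. Mars1 was among the 10 synthetases, with a log2 fold change of -0.23. Vars had log2 levels of 11.65, 11.61 and 11.41 in TM MEFs and 11.26, 11.35 and 11.14 in DM MEFs, against 11.93, 12.02 and 12.19 in WT MEFs. Its log2 fold change was -0.49 in TM MEFs, under the fold limit, and -0.80 in DM MEFs (adjusted p = 1.04e-05 from limma). Cars had log2 levels of 10.65, 10.62 and 10.63 in TM MEFs and 10.20, 9.9964 and 10.05 in DM MEFs, against 10.78, 10.91 and 10.79 in WT MEFs, and fell in DM MEFs by 0.74 (adjusted p = 1.78e-06 from limma). Lars, the leucine enzyme, had log2 levels of 11.79, 11.67 and 11.76 in TM MEFs and 11.13, 10.96 and 11.12 in DM MEFs, against 11.57, 11.60 and 11.59 in WT MEFs, and was called in TM against DM MEFs at 0.67 (adjusted p = 3.55e-06 from limma). No synthetase was called in TM against WT MEFs by limma, nor with p left unadjusted or by an unpaired Student t-test with the fold limit kept. The log2 fold changes of the 16 ran between -0.49 for Vars and 0.22 for Wars. All lay within the fold limit, so no rule on p could have given a call. The enzymes Nars, Gars, Sars, Wars, Iars, Eprs, Yars, Hars, Rars, Kars and Qars had no call in any comparison, with log2 fold changes in DM against WT MEFs between -0.49 for Nars and -0.11 for Eprs.

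Related genes outside the 3 classes were counted from further lists. Over all genes, 5.59% rose and 3.56% fell in TM MEFs, and 5.28% rose and 5.67% fell in DM MEFs, against WT. In TM against DM MEFs 4.68% were higher and 3.61% lower. Of 16 mitochondrial tRNA synthetases, 0 were called in DM against WT or TM against DM MEFs by limma, and Lars2 fell in TM against WT MEFs by 0.72 on the log2 scale. In a list of 16 genes, counts of 0 or 1 lie near the shares over all genes. Their median log2 fold change in DM against WT MEFs was -0.21. Of 5 other genes of cytosolic charging, Farsa, a phenylalanine enzyme subunit, fell in DM against WT MEFs by 0.59 on the log2 scale and none was called otherwise. All 5 had a lower mean in DM than in WT MEFs, with a median log2 fold change of -0.41, where 44.1% of all genes were lower. All 5 had a higher mean in TM than in DM MEFs, with a median of 0.28, where 39.3% of all genes were higher. Of 16 other amino acid and folate enzymes, Gldc rose and Arg2 and Asl fell in TM MEFs, and Arg2, Gcsh, Glul and Pycrl fell in DM MEFs, against WT, while Arg2, Gldc and Glul were higher in TM than in DM MEFs. Glul, glutamine synthetase, was lower by 0.79 in DM than in WT MEFs and higher by 1.26 in TM than in DM MEFs on the log2 scale. Arg2, the mitochondrial arginase, fell by 0.66 in TM and 1.37 in DM MEFs against WT, and Gldc, the glycine-cleaving decarboxylase, rose by 1.05 in TM MEFs, its 3 DM arrays holding 1 identical value. Gldc lay below the array median on every WT and DM array and on TM replicate 2, and Arg2 on every array of both mutants, so both are dim there.

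Atf4 mRNA had log2 levels of 10.32, 10.31 and 10.32 in TM MEFs and 9.85, 9.80 and 9.86 in DM MEFs, against 10.08, 10.26 and 10.18 in WT MEFs. It was lowest in DM MEFs, with a log2 fold change of 0.48 in TM against DM MEFs, under 1.5-fold, and ATF4 is controlled mainly in translation, which arrays do not measure. Of 15 genes comprising Atf4, the kinases PERK and GCN2 and other ATF4 targets, 3 rose (Trib3, Sesn2 and Atf5) and 0 fell in TM MEFs and 0 rose and 4 fell (Chac1, Ppp1r15a, Eif4ebp1 and Stc2) in DM MEFs against WT, while 10 were higher and 0 lower in TM than in DM MEFs. Over all genes, 5.59% rose and 3.56% fell in TM MEFs, and 5.28% rose and 5.67% fell in DM MEFs, against WT. In TM against DM MEFs 4.68% of all genes were higher and 3.61% lower. Chac1, which degrades glutathione, had mean log2 levels of 10.96 in TM and 9.68 in DM MEFs, against 10.38 in WT MEFs. Trib3, a pseudokinase that feeds back on ATF4, had mean log2 levels of 9.09 in TM and 8.03 in DM MEFs, against 8.29 in WT MEFs. Ppp1r15a, which encodes the eIF2α phosphatase subunit GADD34, had mean log2 levels of 10.02 in TM and 8.91 in DM MEFs, against 9.52 in WT MEFs. The log2 fold changes of these 3 genes in TM against DM MEFs were 1.28, 1.06 and 1.12, near those of Asns and Mthfd2. Eif2ak3 and Eif2ak4, which encode PERK and GCN2, were not called, with log2 fold changes against WT of -0.13 and -0.047 in TM MEFs and -0.083 and -0.16 in DM MEFs.

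Other amino acid transporters moved in both directions against WT. Over all genes, 5.59% rose and 3.56% fell in TM MEFs, and 5.28% rose and 5.67% fell in DM MEFs, against WT. In TM against DM MEFs 4.68% of all genes were higher and 3.61% lower. Of 23 measured, 6 rose and 2 fell in TM MEFs and 4 rose (Slc7a2, Slc38a4, Slc36a4 and Slc43a2) and 2 fell in DM MEFs against WT, the same Slc6a15 and Slc1a3 falling in both, and 7 were higher and 0 lower in TM than in DM MEFs. Slc7a2, an inducible cationic amino acid transporter, had log2 levels of 10.71, 10.68 and 10.68 in TM MEFs and 10.73, 10.70 and 10.79 in DM MEFs, against 7.35, 7.38 and 7.49 in WT MEFs. It rose by 3.28 in TM MEFs (adjusted p = 8.67e-13 from limma) and 3.33 in DM MEFs (adjusted p = 5.94e-13 from limma) on the log2 scale, far more than Slc7a1 and with no difference over 1.5-fold between the mutants. Slc38a4, a carrier of neutral amino acids, rose by 1.70 in TM and 1.78 in DM MEFs, and Slc6a15, a carrier of branched-chain amino acids and proline, fell by 1.75 in TM MEFs and fell by 2.36 in DM MEFs. Slc6a15 lay below the array median on every mutant array and on WT replicates 1 and 3, so it is dim in all 3 genotypes. Slc7a2 lay below it on every WT array and is dim there. Slc7a11, the cystine exchanger that pairs with Slc3a2 and was named after its values were seen, had mean log2 levels of 9.89 in TM and 8.54 in DM MEFs, against 8.95 in WT MEFs, and rose by 0.94 in TM MEFs on the log2 scale.

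**Figure D4:**
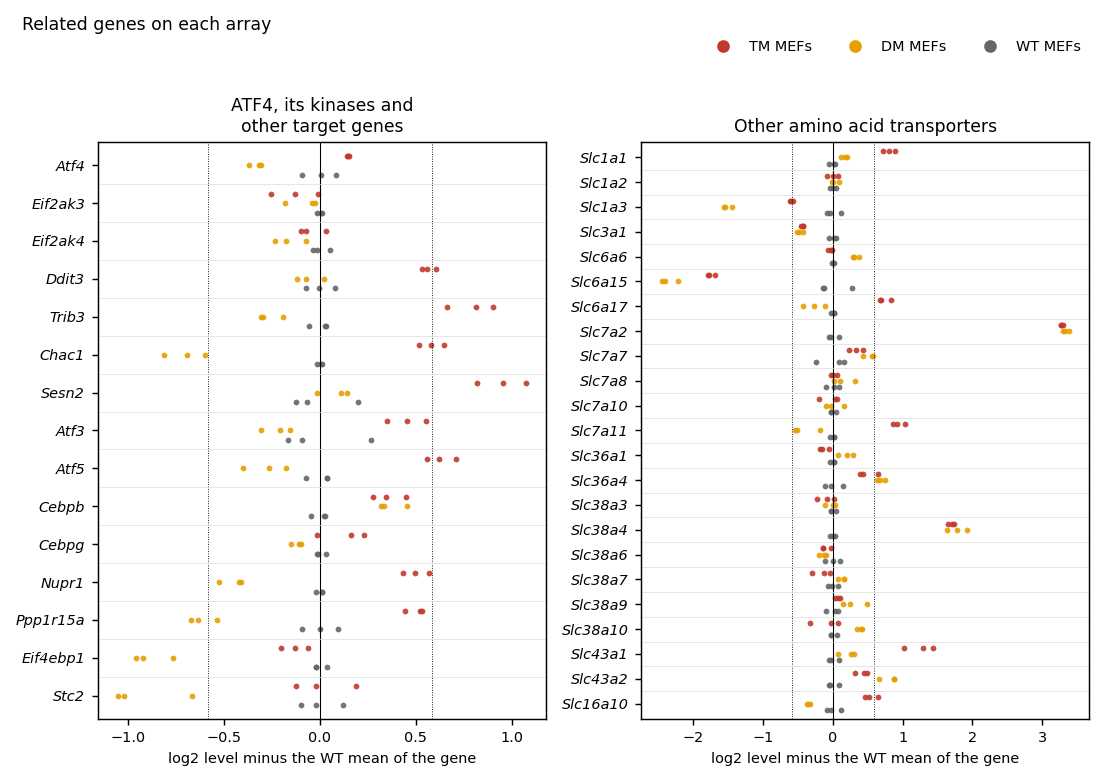
Log2 level on each array minus the mean of the gene in WT MEFs, for ATF4, its kinases and other targets (left) and for other amino acid transporters (right), in TM (red), DM (orange) and WT (grey) MEFs. Dotted lines mark 1.5-fold, TM points lie right of DM points for Trib3, Chac1 and Ppp1r15a, and Slc7a2 and Slc38a4 lie far to the right in both mutants.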

How the data were processed

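Affymetrix Gene ST arrays measured MEF RNA, with 3 arrays for each of 3 genotypes. The authors deposited log2 values, with 1 value for each probe set on each array. They were made with RMA, per the processing notes of the submitters, which corrects background, normalizes between arrays and summarises probes. PLIER values were not used here, and no genome build was found in the labels, methods or file headers. Of 35556 probe sets, the platform annotation gives a single symbol to 21789, several symbols to 1621 and no entry to 12146. Only the first were named, and 21698 matched the RefSeq table by gene identifier. The brightest probe set per gene was kept, also for the 999 genes with several, giving 19938 genes. Array medians were 7.62 to 7.72, and r was 0.994 to 0.997 within and 0.976 to 0.984 between genotypes.

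All 9 arrays were fitted in 1 model (limma 3.58.1, R 4.3.3, lmFit and eBayes, 6 residual degrees of freedom), with Benjamini-Hochberg adjustment over all genes and calls at adjusted p under 0.05 and over 1.5-fold, the fold threshold of the methods. A simulation of TM against WT with 19938 genes gave calls for 100 of 100 genes shifted by 1 and 100 of 100 shifted by 2 (log2), and 0 false calls. It drew independent noise at the spread within genotypes, and both shifts lie past the 1.5-fold limit. The simulation therefore says nothing of calls near that limit or of spread between cultures. The number of arrays limits the precision. The genes and lists were chosen with earlier results of these data known. Array values are given for up to 8 called genes of a class, by largest change among those whose arrays do not overlap, and for up to 3 called genes of each further list, by largest change, values are given. Other genes of those lists were named after their values were seen, mainly where a count was 5 or fewer. Alternatives were other scalings, the mean of probe sets, a filter on dim genes, other variance models, array weights, fits of 6 arrays, the replicate number as a block, an unpaired Student t-test, other fold limits and leaving out each array. The Student test was chosen here, because the methods name no test for the arrays.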

Additional observations from a re-analysis of the deposited data

Results flagged for a closer look

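Aldh1l2 was singled out because the mutants moved in opposite directions from WT and differed when tested directly. Its log2 level averaged 10.99 ± 0.035 in TM MEFs and 9.09 ± 0.051 in DM MEFs, against 9.97 ± 0.058 in WT MEFs (SD, n = 3 arrays each), and the log2 fold change in TM against DM MEFs was 1.90 (adjusted p = 8.29e-11 from limma). All 3 arrays of each genotype lay apart from those of the others. The part of the mesothelial markers that were higher in DM MEFs was not tested.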

How the results depend on the processing

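Each of the 38 genes was recomputed under every alternative, and calls moved mainly with the fold limit. With none, 11 genes rose and 6 fell in TM against WT MEFs (7 enzymes, 5 transporters and 5 synthetases), 2 rose and 31 fell in DM against WT MEFs (12, 7 and 14) and 30 were higher and 1 lower in TM than in DM MEFs (10 transporters and 11 synthetases). Over 2-fold, 1 enzyme was called in TM against WT MEFs, 0 genes of any class fell in DM against WT MEFs, and 5 were higher in TM than in DM MEFs (4 enzymes, 1 transporter and 0 synthetases). Over all genes, limits of none and 2-fold gave 2757 and 558 higher and 3581 and 223 lower in TM against WT MEFs, 3398 and 527 higher and 3942 and 358 lower in DM against WT MEFs, and 3070 and 408 higher and 3280 and 268 lower in TM against DM MEFs, where 1.5-fold gave 1115 and 709, 1052 and 1131, and 933 and 720. Median centring moved the share of calls that were higher to 50.6% for TM against WT MEFs, beside 61.1%, and to 36.6% for DM against WT MEFs, beside 48.2%. It left 1 enzyme called in TM against WT MEFs (Gpt2 lost) and called 2 transporters in DM against WT MEFs (Slc1a4 gained, -0.63), with Lars also gained at -0.61. Cyclic loess called 2 transporters in TM against WT MEFs (Slc6a9 gained) and turned Shmt2 to 0.042 in TM against WT MEFs. Tars in TM against WT MEFs, -0.0062 as deposited, was 0.050 with quantile normalization, 0.075 with cyclic loess, 0.022 without TM replicate 2 and between -0.026 and 0.024 when each array was left out. Phgdh in TM against DM MEFs was not called by the unpaired Student t-test after adjustment. Leaving out each array gave 2 to 3 genes higher and 0 to 0 lower in TM against WT MEFs (1 to 2 enzymes, 1 to 1 transporters and 0 to 0 synthetases), 0 to 0 higher and 10 to 11 lower in DM against WT MEFs (5 to 6, 1 to 1 and 4 to 4), and 12 to 16 higher and 0 to 0 lower in TM against DM MEFs (6 to 7, 3 to 5 and 2 to 5). The 5 synthetases came without DM replicate 1, where Cars was among those gained, at 0.61. Genes with no call in the fit of all 9 arrays were not followed by name, so Cars is not the only gain. With the replicate block the counts were 3 and 0, 0 and 11, and 14 and 0. Deviations of arrays with the same number correlated between -0.239 and 0.168, and 1 of 9 arrays correlated best with its own number. No shared effect of the numbers was thus seen, but whether they pair the samples is not known. The cause of these changes was not tested. Signal above background was not available in these values, so dim genes such as Slc7a3 in WT MEFs are the least certain.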

Other observations

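The 38 genes did not vary evenly over the arrays of a genotype. DM replicate 2 was the lowest of the 3 DM arrays in 26 of the 38 genes, and DM replicate 3 the highest in 21. TM replicate 1 was the highest of the 3 TM arrays in 21 genes. These ranks were not counted over all genes, so a shift of a whole array cannot be told apart from one of these genes. Slc38a1 and Iars each had a second probe set, not used above, and these gave differences of 0.38 and 0.22 on the log2 scale in TM against DM MEFs, beside 0.46 and 0.22 for the brighter ones. For Slc38a1 the dimmer probe set had a log2 difference of -0.65 in DM against WT MEFs, larger in size than the -0.44 of the brighter one.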
